A study of Bos taurus with 30 samples.

Results

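The extra-embryonic membranes (EEM) of day 15 bovine embryos produced in vitro (IVP) were compared with those of embryos conceived in vivo (IVV). The comparison took the libraries that the sample labels place in the EEM, 6 from IVP and 8 from IVV embryos, 14 of the 30 libraries of the series. The other 16 libraries came from the embryonic disc (ED) and enter below only where a tissue difference was tested. Each library was made from poly(A)-selected RNA without strand information, and the values are counts per gene.

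IVP embryos came from oocytes of slaughterhouse ovaries that were matured, fertilized and cultured without serum, then placed in recipient cows on day 7. IVV embryos followed superovulation and artificial insemination of donor cows. All embryos were flushed at day 15, those without an ED were discarded, and pieces of EEM were frozen. The methods name 2 Holstein recipients and 2 Holstein donors, and the labels do not tie an embryo to a cow. The production procedure therefore cannot be told apart from the cow and its hormonal treatment. The p-values below measure the spread between these embryos, some of which shared a uterus. The labels give no length, morphology or sex for any embryo.

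The EEM of the elongating ruminant conceptus consist of trophectoderm, the outer epithelium that will form the chorion, lined by hypoblast, the precursor of the yolk sac endoderm. The trophectoderm secretes interferon tau, the signal that maintains the corpus luteum, together with pregnancy-associated glycoproteins, Kunitz-domain proteins and prostaglandins. It grows through autocrine and uterine factors before any attachment to the endometrium.

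Library totals ran from 49068742 to 59358231 counts. No library summary separated the groups: the exact permutation tests of totals, of detected genes and of the share of the 10 leading genes each had an adjusted p of 0.573 over the 3 tests. Trophectoderm keratin transcripts were abundant in every library, with KRT8 at 9546 to 31175 CPM (counts of a gene scaled by library size). The hypoblast transcription factor gene GATA6 was also present in every library, from 35.5 to 128 CPM in IVP and from 58.2 to 78.5 CPM in IVV. SOX2, TBXT and FGF4, which mark epiblast or mesoderm, and the endometrial gene PAEP were at 0 in all 14 libraries, though other genes of these lists were expressed. The epiblast list summed to 107 to 203 CPM in IVP and 106 to 139 CPM in IVV, the mesoderm list to 5.29 to 12.3 and 6.90 to 16.4 CPM, and the endometrial list to 5.88 to 19.6 and 6.52 to 21.6 CPM. PTPRC, the pan-leukocyte gene, did not exceed 0.0388 CPM and the hemoglobin gene HBB did not exceed 0.0414 CPM. The hypoblast gene AFP was at 0 as well, so the hypoblast share of the label rests on other genes. Bulk RNA cannot separate fewer cells of a type from less RNA per cell.

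The deposited counts carried a regularity that bears on every test below. By the number of genes with a count of exactly 1, the 14 libraries fell into one set with 258 to 350 such genes (IVP10, IVP11, IVP14, VE24, VE26, VE28 and VE29) and another with 640 to 875 (IVPF9, IVPF13, IVPF14, VE3, VE4, VE5 and VE19). Within a procedure, libraries of the same set shared exactly equal counts between 10 and 60 more often than neighbouring values predict, by a median factor of 3.93 over 18 pairs. The factor was 1.09 for pairs of 1 procedure from different sets and 1.12 for pairs of different procedures. Within each procedure the means of the 2 sets were also nearly equal, gene by gene. Over 9267 genes of at least 5 CPM they differed by a median of 1.65% in IVP and 1.59% in IVV, although single libraries of a set differed by 40.8% and 37.4%. The fold changes of IVP over IVV in the 2 sets differed by a median of 0.045 on the log2 scale over 14613 genes, where the median standard error of that difference was 0.643. The methods name the sva package for the comparison of groups and do not describe an adjustment of the deposited counts. The cause was not tested. The sets are therefore not independent repeats of the comparison, and the tests below take the deposited whole numbers as plain counts.

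Of 14718 tested genes, 337 were higher and 224 were lower in the EEM of IVP embryos (edgeR's quasi-likelihood test with 1 surrogate variable, adjusted p under 0.05). These calls were 2.29% and 1.52% of the tested genes, 3.81% in all. Their median log2 fold change was 1.58 for genes higher and -1.95 for genes lower, and 80 and 110 genes lay beyond a 4-fold difference. The called genes were lowly expressed, with a median mean level of 2.10 CPM for those higher and 1.18 CPM for those lower, beside 13.7 CPM over all tested genes. Of the lower calls 66 had under 10 counts in every IVP library, and of the higher calls 4 had under 10 counts in every IVV library, so that these passed the filter on low counts through the other group and their direction was fixed by it. Genes with too few libraries of 1 group at the filter passed through the other group as well, and these were not counted. In 70 of the genes called higher and 55 of those called lower the 2 groups of libraries did not overlap. Over all tested genes, non-overlapping groups were found with IVP above in 82 genes (0.557%) and with IVP below in 55 genes (0.374%).

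The number of calls depended on the model. Of 91 called genes followed one by one, 64 were called without a surrogate variable and 31 of 90 with XIST as a covariate. Without a surrogate variable, 183 of the 337 higher and 188 of the 224 lower genes were still called. When each set of libraries was compared on its own, every higher gene tested in the set of VE24 kept its sign (335 of 335), but 52 of the higher and 84 of the lower genes were called there. In the other set 0 genes were called by edgeR's quasi-likelihood test, where 644 genes had an unadjusted p under 0.05 and the smallest adjusted p was 0.0788. Each library left out in turn gave between 426 calls (without VE5) and 729 calls (without VE19). On the second principal component VE19 lay at 45.3, VE3, VE4 and VE5 between -30.5 and -26.6, and the other 4 IVV libraries between 0.627 and 10.97. In VE19, 263 of the 337 higher genes were below the IVP median, against 314 to 337 in the other 7 IVV libraries.

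**Figure D1:**
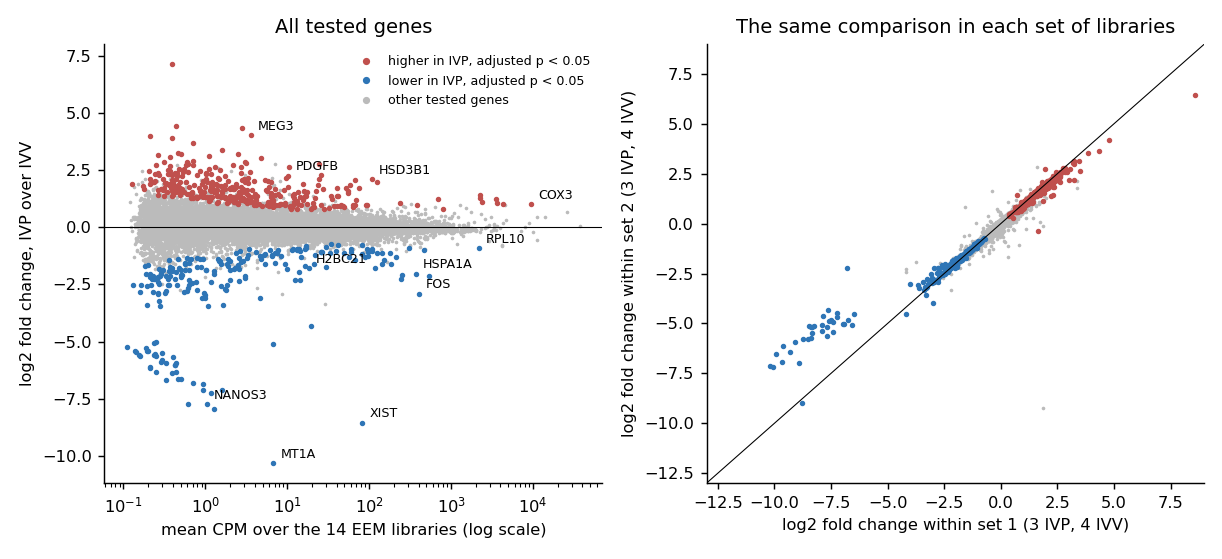
Log2 fold change (IVP over IVV) of each tested gene against its mean CPM over the 14 EEM libraries on a log axis (left), and the fold change within one set of libraries (3 IVP, 4 IVV) against that within the other (right), with the line of equality. Red and blue points are the 337 higher and 224 lower genes, most of them at low expression, and in the right panel the points lie near the line except for genes close to 0 counts in IVP.

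IVP and IVV libraries were separated on the first principal component of the 500 most variable genes, which held 28.3% of their variance. IVP libraries lay between 8.94 and 38.1 on it and IVV libraries between -23.4 and -11.4. The distances between libraries were less distinct: the median root mean square log2 difference was 0.921 within IVP, 0.966 within IVV and 1.02 between the groups.

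XIST, the noncoding RNA that coats the inactive X chromosome of female cells, had from 0 to 0.557 CPM in the 6 IVP libraries. In IVV, 6 libraries had 91.2 to 396 CPM, while VE3 and VE5 had 0.186 and 0.197 CPM. Its log2 fold change was -8.54 ± 1.21 (edgeR adjusted p = 0.000100). High XIST was thus present in IVV libraries and in no IVP library, so procedure and XIST class overlap strongly in the EEM. With log2 XIST as a covariate the model called 54 genes higher and 90 lower, and 42 of the 337 higher and 87 of the 224 lower calls were among them. The signs were kept in 337 and 222 of these genes, with median log2 fold changes of 1.56 and -1.97 over the same genes, beside 1.58 and -1.95 without the covariate. Of 9 X-linked genes with a Y-linked partner, picked after the values were seen and given no test, each was fitted lower in IVP. ZFX, a zinc finger transcription factor gene, ran from 17.8 to 31.7 CPM around a median of 25.4 in IVP and from 27.0 to 68.0 around 52.6 in IVV. The XIST-poor libraries VE3 and VE5 had 62.0 and 47.3 CPM of it, above every IVP library. They were also both above every IVP library in KDM6A, DDX3X, EIF2S3 and TXLNG. In KDM5C and USP9X VE5 alone was above it, and in UBA1 and EIF1AX both lay within the IVP range.

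**Figure D2:**
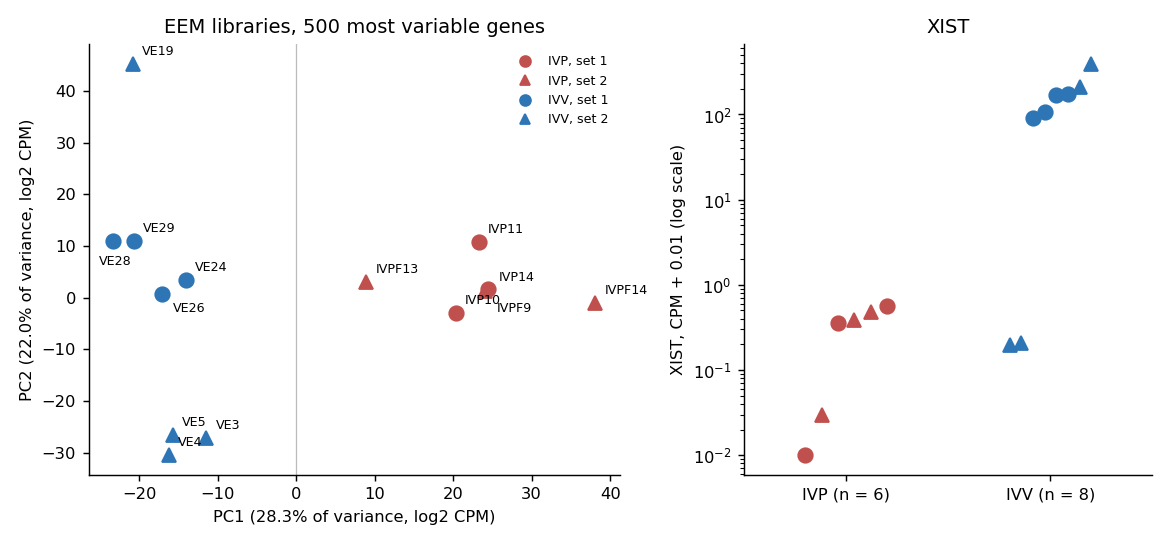
EEM libraries by principal components 1 and 2 of the 500 most variable genes (left) and XIST as CPM + 0.01 on a log axis (right), each point 1 library, with IVP in red, IVV in blue, circles for the set of VE24 and triangles for the set of VE19. The 6 IVP libraries are separated from the 8 IVV libraries on component 1, and 6 IVV libraries lie at 91.2 CPM of XIST or above while VE3, VE5 and all IVP libraries lie at 0.557 CPM or below.

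The genes were further described in 46 lists of pathways, cell types and complexes. In 10 lists no tested member was called. Calls covered at least 25% of the tested members in 4 of the lists with 10 tested members or more, which were immediate early genes, core and linker histones, mitochondrially encoded respiratory chain subunits, and the PDGF and VEGF families. The last reached this share with PDGFRL and NRP1, which passed the filter on low counts through IVV and through IVP. The median log2 fold change over all tested genes was 0.00, with quartiles at -0.18 and 0.24.

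**Figure D3:**
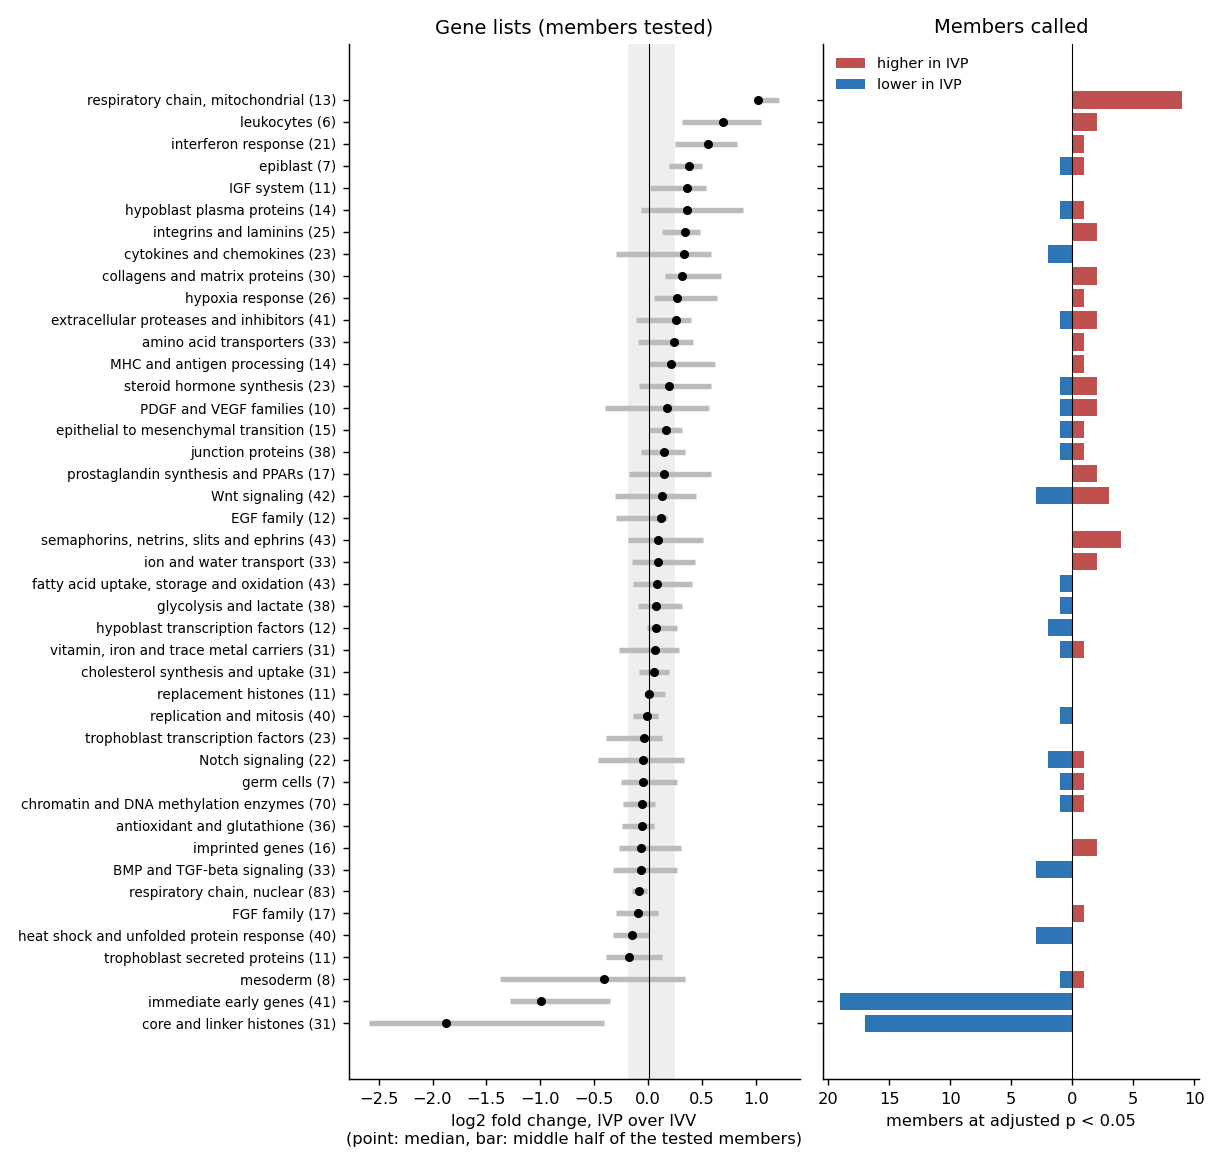
Gene lists with at least 5 tested members (number tested in parentheses): the median log2 fold change of IVP over IVV in the EEM as a point with the range between quartiles as a bar (left, with the quartiles of all tested genes shaded), and the numbers of members called higher (red) and lower (blue, right). The immediate early genes and the core and linker histones have medians of -0.99 and -1.88, and the 13 mitochondrially encoded subunits have a median of 1.02, which was 0.45 without a surrogate variable.

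Immediate early genes, whose transcription answers growth factor and stress signals within minutes, included FOS, EGR1 and JUN among the genes lower in IVP. Of 41 tested members 19 were called lower and 0 higher, beside the 1.52% of all tested genes that were called lower, and the list had a median log2 fold change of -0.99. Their summed level ran from 2057 to 5169 CPM in IVP and from 4752 to 12373 CPM in IVV. FOS (Entrez 280795), the AP-1 subunit, had 36.9 to 167 CPM in IVP with a median of 56.8, against 288 to 1186 CPM in IVV with a median of 514. Every IVP library was thus below every IVV library, with a log2 fold change of -2.90 ± 0.34 (SE, edgeR adjusted p = 9.38e-06). EGR1 (Entrez 407125), a zinc finger transcription factor gene, had 24.7 to 151 CPM around 57.8 in IVP and 157 to 667 CPM around 360 in IVV. Its groups did not overlap either, and its log2 fold change was -2.27 ± 0.30 (edgeR adjusted p = 5.61e-05).

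ATF3, a stress-induced repressor of the same bZIP class as FOS, had 18.97 to 95.1 CPM around 41.2 in IVP and 111 to 287 CPM around 146 in IVV. It too was without overlap, at a log2 fold change of -1.79 ± 0.27 (edgeR adjusted p = 0.000183). JUN (Entrez 280831), the AP-1 partner of FOS, varied more, from 10.4 to 404 CPM around 124 in IVP and from 348 to 1705 CPM around 593 in IVV. The groups overlapped at their edges, and the log2 fold change was -2.12 ± 0.44 (edgeR adjusted p = 0.00436). RHOB, a small GTPase gene of endosomes, had the smallest difference of those named, with a log2 fold change of -0.99 (edgeR adjusted p = 0.049, and 0.075 without a surrogate variable). CDKN1A, the cell cycle inhibitor p21, was lower as well, from 17.7 to 52.3 CPM around 21.2 in IVP and from 36.6 to 110 CPM around 62.9 in IVV (log2 fold change -1.11, edgeR adjusted p = 0.0156). With XIST as a covariate 12 immediate early genes were called lower, and without VE28 12 were as well. FOS remained at an edgeR adjusted p of 0.000209, whereas that of JUN became 0.0524 at a log2 fold change of -2.34, no smaller than without the covariate.

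Of 40 tested heat shock and unfolded protein response genes 3 were lower and 0 higher, beside 1.52% of all tested genes called lower, and the list had a median log2 fold change of -0.15. HSPA1A (Entrez 282254), the inducible HSP70, had 71.7 to 232 CPM around 123 in IVP and 292 to 1147 CPM around 421 in IVV. The groups did not overlap, at a log2 fold change of -2.03 ± 0.34 (edgeR adjusted p = 0.00055, and 0.00149 with XIST as a covariate). Its cochaperone gene DNAJB1 fell by 1.59 on the log2 scale (edgeR adjusted p = 0.000918), from a median of 255 CPM in IVV to 71.6 CPM in IVP. HERPUD1, of the endoplasmic reticulum stress response, fell by 1.15 (edgeR adjusted p = 0.0138). HSPA8, the constitutive HSP70, had a log2 fold change of -0.80 and was not called (edgeR adjusted p = 0.0931).

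**Figure D4:**
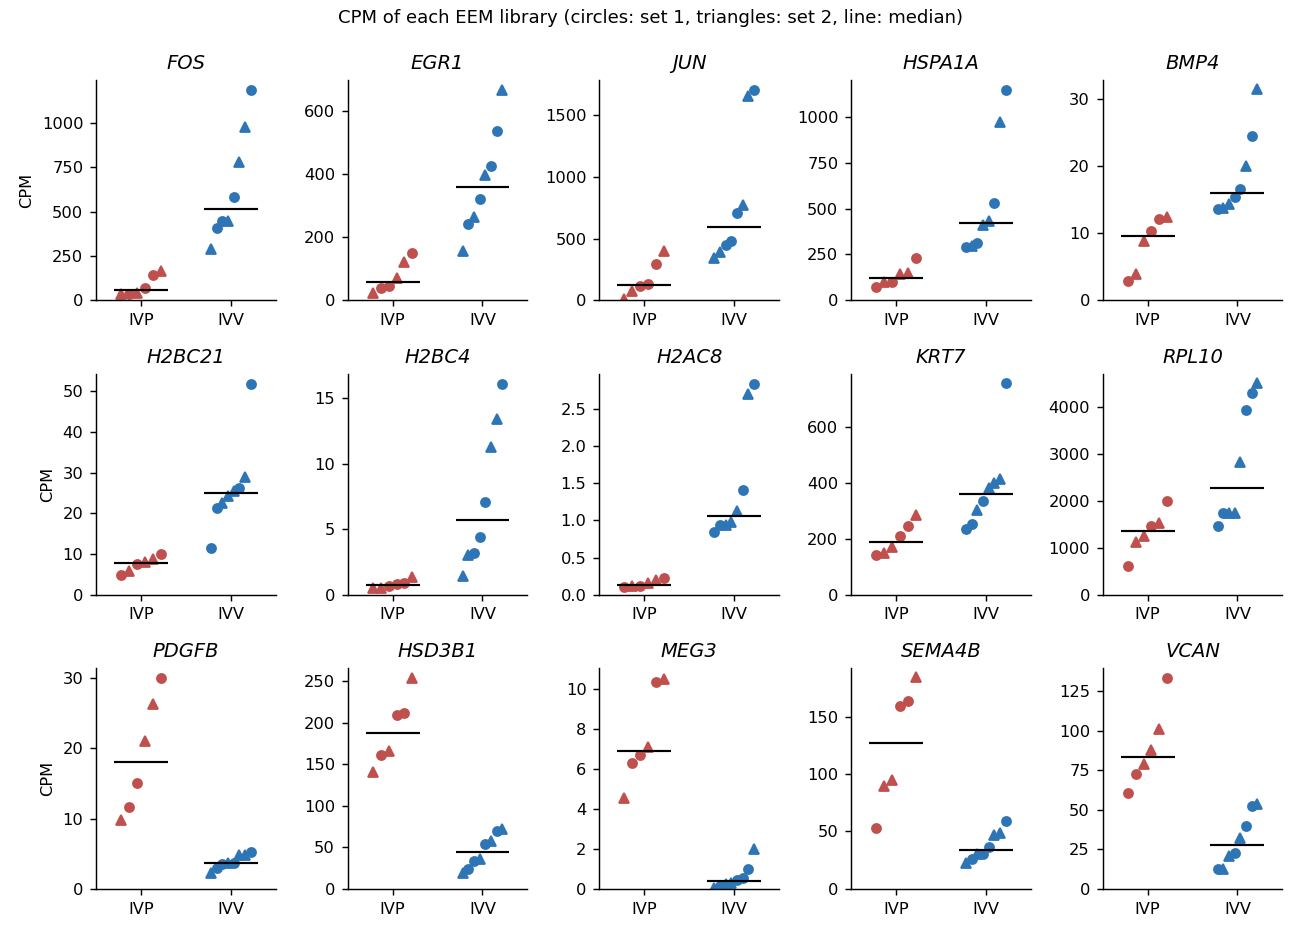
CPM of 15 genes in each EEM library on linear axes that start at 0, 1 symbol per library (circles for the set of VE24, triangles for the set of VE19) and a line at each group's median. FOS, EGR1 and HSPA1A are lower in all 6 IVP libraries than in the 8 IVV libraries, and PDGFB, HSD3B1, MEG3 and VCAN are higher in all 6.

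Core and linker histone genes, mostly replication-dependent genes whose transcripts end in a stem-loop and lack a poly(A) tail, had 17 lower calls. Of 64 genes found, 31 passed the filter on low counts and 23 had at most 3 counts in every library. Among the 31 tested, 17 were called lower and 0 higher, beside 1.52% of all tested genes called lower, and the median of the list was -1.88, with 3 members fitted above 0. Of the 17, 3 had under 10 counts in every IVP library, and 15 were left without the genes at the floor or with repeated counts. In 10 of the 31 the groups did not overlap with IVP below, beside 0.374% of all tested genes. H2BC4 (Entrez 787269) had 0.485 to 1.33 CPM around 0.736 in IVP and 1.44 to 16.1 CPM around 5.74 in IVV, a log2 fold change of -3.08 ± 0.41 (edgeR adjusted p = 5.24e-05). H2BC21, more abundant and known to yield polyadenylated transcripts, had 4.77 to 9.90 CPM around 7.85 in IVP and 11.5 to 51.9 CPM around 24.97 in IVV. Neither gene overlapped between groups, and the log2 fold change of H2BC21 was -1.80 ± 0.28 (edgeR adjusted p = 0.000229). H2AC8 (Entrez 524808) had 0.100 to 0.231 CPM in IVP and 0.849 to 2.83 CPM in IVV (log2 fold change -3.08). Too few IVP libraries of H2AC8 reached the filter on low counts, so that it passed through IVV and no p is given. Near-identical copies of these genes can share reads, so a value for 1 histone gene is uncertain. Since the libraries were poly(A)-selected, less histone RNA cannot be told apart from less capture of it.

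The lists of replacement histones, of replication and mitosis genes and of chromatin enzymes had few calls. The 11 replacement histone genes, transcribed throughout the cell cycle, had 0 calls. Of 40 tested replication and mitosis genes 1 was lower and 0 were higher, and their summed level ran from 3887 to 5655 CPM in IVP and from 3999 to 5439 CPM in IVV. Among 70 tested genes of chromatin and DNA methylation enzymes 1 was higher and 1 lower, the higher one being SMARCA2, a SWI/SNF ATPase gene (log2 fold change 0.91, edgeR adjusted p = 0.0382). The lower one was the X-linked histone demethylase gene KDM6A, at 19.3 to 31.4 CPM in IVP and 24.2 to 64.9 CPM in IVV (log2 fold change -0.75, edgeR adjusted p = 0.0384). These shares are near those over all tested genes (2.29% and 1.52%), and neither gene was called without a surrogate variable or with XIST.

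Among the genes higher in IVP were several ligands and receptors of growth and guidance. PDGFB (Entrez 540106), the platelet-derived growth factor B chain, had 9.81 to 30.02 CPM around 18.0 in IVP and 2.29 to 5.28 CPM around 3.69 in IVV. All IVP libraries were above all IVV libraries, with a log2 fold change of 2.25 ± 0.25 (edgeR adjusted p = 4.5e-06, and 0.00345 with XIST as a covariate). NRP1, a coreceptor for VEGF and class 3 semaphorins, had 0.557 to 1.63 CPM around 0.813 in IVP and 0.0439 to 0.358 CPM around 0.174 in IVV (log2 fold change 2.42). Too few IVV libraries of NRP1 reached the filter on low counts, so that it passed through IVP and no p is given. The PDGF and VEGF families had 2 of 10 tested members higher and 1 lower, beside 2.29% and 1.52% of all tested genes. The lower member was the receptor-like gene PDGFRL, with a log2 fold change of -2.03 and at most 6 counts in an IVP library.

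Of 43 tested semaphorin, netrin, slit and ephrin genes, which carry guidance signals between cells, 4 were higher and 0 lower. SEMA4B, a membrane-bound semaphorin, had 53.0 to 184 CPM around 127 in IVP and 22.7 to 59.4 CPM around 33.5 in IVV (log2 fold change 1.73 ± 0.27, edgeR adjusted p = 0.000301). Its groups overlapped between 53.0 and 59.4 CPM alone. The secreted SEMA3C had a log2 fold change of 1.98 (edgeR adjusted p = 0.00282), the ephrin ligand EFNA4 one of 1.58 (edgeR adjusted p = 0.00197) and SEMA5B one of 1.38 (edgeR adjusted p = 0.027). Over all tested genes 2.29% were called higher, and the list's median log2 fold change was 0.09. Without a surrogate variable 3 members of the list were called higher, and with XIST as a covariate 0 were.

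Wnt signaling genes were called in both directions, 3 higher and 3 lower of 42 tested, beside 2.29% and 1.52% of all tested genes. With XIST as a covariate 0 were higher and 1 was lower. Among the ligands, WNT4 (Entrez 789600) had 2.54 to 8.72 CPM around 4.53 in IVP and 0.140 to 1.48 CPM around 1.15 in IVV, with no overlap (log2 fold change 2.36 ± 0.37, edgeR adjusted p = 0.000301). WNT10A and the Wnt agonist RSPO3 were higher too, by 1.28 and 1.64 on the log2 scale (edgeR adjusted p = 0.00998 and 0.00342). The lower calls were a receptor, a feedback inhibitor and a ligand. LGR5, a receptor for R-spondins, had at most 0.0794 CPM in IVP and 0.164 to 0.687 CPM in IVV. With at most 5 counts in an IVP library it passed the filter on low counts through IVV, so no p is given. NKD1, a feedback inhibitor of the pathway, had 0.543 to 1.75 CPM around 0.656 in IVP and 1.59 to 5.18 CPM around 2.69 in IVV (log2 fold change -1.47, edgeR adjusted p = 0.0145). The third lower member, WNT9A, is a ligand gene with at most 7 counts in an IVP library and repeated counts between libraries of 1 set.

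Of 33 tested BMP and TGF-beta signaling genes 3 were lower and 0 higher, beside 1.52% of all tested genes called lower. The list's median was -0.06, 13 members were fitted above 0, and none of the 3 was called with XIST as a covariate or within the set of VE24. TGFB2, a TGF-beta ligand, had 0.520 to 1.07 CPM around 0.877 in IVP and 1.24 to 4.33 CPM around 2.20 in IVV (log2 fold change -1.63, edgeR adjusted p = 0.00488). ID1, a transcriptional target of BMP signaling, had medians of 3.68 CPM in IVP and 13.7 CPM in IVV (log2 fold change -1.85, edgeR adjusted p = 0.0132). BMP4, a BMP ligand, had 2.91 to 12.4 CPM around 9.63 in IVP and 13.6 to 31.4 CPM around 16.0 in IVV. Its groups did not overlap, yet its log2 fold change of -1.04 ± 0.30 was near the threshold (edgeR adjusted p = 0.046, and up to 0.125 with a library left out). In the Notch pathway, the target gene HEY1 and the ligand gene DLL1 were lower, by log2 fold changes of -1.62 and -1.28 (edgeR adjusted p = 0.00952 and 0.0285), and HEYL, a related repressor gene, was higher at 0.87 (edgeR adjusted p = 0.0393). These were 3 of 22 tested Notch genes, beside 3.81% of all tested genes called. The list had 0 higher and 2 lower calls without a surrogate variable, and 0 and 1 with XIST as a covariate.

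Of 12 tested hypoblast transcription factor genes 2 were lower and 0 higher, beside 1.52% of all tested genes called lower, and neither was called with XIST as a covariate or within the set of VE24. SOX7, an endoderm factor gene, had 0.173 to 0.615 CPM around 0.397 in IVP and 0.559 to 2.68 CPM around 1.56 in IVV (log2 fold change -1.85, edgeR adjusted p = 0.00457). HHEX, a homeobox gene of anterior visceral endoderm, had medians of 3.61 and 9.29 CPM (log2 fold change -1.28, edgeR adjusted p = 0.0444). The list as a whole did not follow them, with 9 of the 12 fitted above 0 and a summed level of 145 to 351 CPM in IVP and 179 to 244 CPM in IVV. NODAL, a TGF-beta family ligand of epiblast, was at most 0.0969 CPM in IVP and 0.134 to 0.662 CPM in IVV, again with at most 5 counts in an IVP library. LIN28B, an RNA-binding protein gene on the same epiblast list, was higher by 1.10 (edgeR adjusted p = 0.0159). It was not called without a surrogate variable or with XIST as a covariate. In the list of mesenchymal transition genes, TWIST1 was higher, at medians of 2.41 and 0.475 CPM (log2 fold change 2.10, edgeR adjusted p = 0.00132), and SNAI2 had a log2 fold change of -2.17 with at most 9 counts in an IVP library.

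In steroid and prostaglandin metabolism a small number of genes were called. HSD3B1 (Entrez 281824), which converts pregnenolone to progesterone, was the most abundant of the steroid genes called. It had 141 to 254 CPM around 188 in IVP and 19.7 to 72.4 CPM around 45.0 in IVV. All IVP libraries were above all IVV libraries, with a log2 fold change of 2.09 ± 0.28 (edgeR adjusted p = 5.11e-05, and 0.000378 with XIST as a covariate). SULT1E1, the estrogen sulfotransferase, was higher by 1.53 (edgeR adjusted p = 0.0452), and HSD11B2, which inactivates glucocorticoids, was lower and is given with the genes near 0 below. These were the 3 calls among 23 tested steroid genes, beside 2.29% of all tested genes called higher and 1.52% called lower. Of 17 tested prostaglandin and PPAR genes, HPGD, which degrades prostaglandins, and PLA2G4A, which releases their precursor arachidonic acid, were higher by 1.62 and 1.56 (edgeR adjusted p = 0.00677 and 0.043). PLA2G4A was not called with DESeq2. None of 31 cholesterol synthesis and uptake genes was called.

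Of 30 tested collagens and matrix proteins 2 were higher, and of 25 integrins and laminins 2 were higher, with 0 lower in both lists, beside 2.29% of all tested genes called higher and 1.52% called lower. Without a surrogate variable the integrins and laminins had 0 higher and 1 lower call, and with XIST as a covariate neither list had a call. The 38 junction proteins had 1 higher and 1 lower call (GJB5), and the 41 extracellular proteases and inhibitors had 2 higher and 1 lower call (ADAM12, at most 0.0158 CPM in IVP and up to 0.627 CPM in IVV). VCAN (Entrez 282662), the chondroitin sulfate proteoglycan versican, had 60.7 to 133 CPM around 83.3 in IVP and 12.5 to 53.8 CPM around 27.5 in IVV, without overlap (log2 fold change 1.50 ± 0.30, edgeR adjusted p = 0.00319). FBN2, a microfibril component, had 0.394 to 1.82 CPM around 1.15 in IVP and 0.0798 to 0.285 CPM around 0.192 in IVV (log2 fold change 2.54). Too few IVV libraries of FBN2 reached the filter on low counts, so that it passed through IVP and no p is given. ITGB6 and ITGB7, integrin beta subunits, were higher by 2.54 and 1.31 (edgeR adjusted p = 0.007 and 0.00718). MMP14, a membrane-bound collagenase, had a log2 fold change of 1.49 (edgeR adjusted p = 0.0126). JAM3, a junctional adhesion molecule, had 8.32 to 26.7 CPM around 19.3 in IVP and 3.96 to 10.2 CPM around 6.94 in IVV (log2 fold change 1.38, edgeR adjusted p = 0.00151). KRT7, a trophectoderm keratin, was lower in contrast, at medians of 190 and 360 CPM (log2 fold change -0.93, edgeR adjusted p = 0.0457). DESeq2 called it too (adjusted p = 0.0131). It was not called by edgeR without a surrogate variable, with the library set as a term or with XIST (adjusted p = 0.0676, 0.0621 and 0.643), at log2 fold changes of -0.94, -0.93 and -0.79.

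Transport, stress and immune genes gave scattered calls. AQP11, an intracellular aquaporin, had 16.5 to 31.5 CPM around 26.9 in IVP and 1.38 to 17.6 CPM around 9.93 in IVV (log2 fold change 1.35, edgeR adjusted p = 0.000961). KCNN4, a calcium-activated potassium channel, was higher by 1.77 (edgeR adjusted p = 0.00213), and the folate receptor FOLR1 by 1.44 (edgeR adjusted p = 0.0209). The vitamin, iron and trace metal carriers had 1 higher call, and 0 without a surrogate variable or with XIST as a covariate. DDIT4, an inhibitor of mTORC1 induced by hypoxia and other stresses, had 26.9 to 184 CPM around 94.2 in IVP and 12.0 to 52.7 CPM around 26.5 in IVV (log2 fold change 1.84 ± 0.36, edgeR adjusted p = 0.003). It was the only called member of 26 tested hypoxia response genes, beside 2.29% of all tested genes called higher. IRF9, which transmits type I interferon signals, was higher by 1.23 (edgeR adjusted p = 0.0124) as the only call of 21 interferon response genes. B2M, the light chain of MHC class I, was higher by 0.91 (edgeR adjusted p = 0.0403) as the only call of 14 MHC and antigen processing genes. Neither of these 2 lists had a call without a surrogate variable or with XIST as a covariate. IL1A, the cytokine interleukin 1 alpha, was lower, at medians of 0.642 CPM in IVP and 2.73 CPM in IVV (log2 fold change -2.21, edgeR adjusted p = 0.000127).

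The fatty acid and glycolysis lists held a single call each, and in both the called gene was lower. Over all tested genes 1.52% were called lower and 2.29% higher, and nothing is read from a single call in a list. PPARGC1A, the coactivator that drives mitochondrial biogenesis, had from 1.09 to 4.3 CPM around 2.48 in IVP and 4.79 to 5.72 CPM around 5.24 in IVV. The IVV libraries lay close together and above every IVP library, with a log2 fold change of -1.07 ± 0.27 (edgeR adjusted p = 0.0229, and 0.0574 without a surrogate variable). It was the call among 43 fatty acid genes. Among 38 genes of glycolysis and lactate the call was PDHA1, the X-linked E1 alpha subunit of pyruvate dehydrogenase, at medians of 58.4 CPM in IVP and 104 CPM in IVV (log2 fold change -0.78, edgeR adjusted p = 0.0232). Its groups overlapped, and without a surrogate variable it was not called (edgeR adjusted p = 0.178). SLC38A5, a glutamine transporter gene, was the call among 33 amino acid transporters and was higher, at medians of 8.74 and 3.79 CPM (log2 fold change 1.32, edgeR adjusted p = 0.0337). IL17RD, an antagonist of FGF signaling, had 6.40 to 14.6 CPM around 12.3 in IVP and 3.13 to 8.48 CPM around 5.15 in IVV (log2 fold change 1.01, edgeR adjusted p = 0.0166) and was the call among 17 FGF family genes.

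Lists of markers of other cells held few tested members. Of these, 2 of 6 leukocyte, 2 of 7 epiblast, 2 of 8 mesoderm and 2 of 7 germ cell genes were called, beside 3.81% of all tested genes. The epiblast, mesoderm and germ cell lists each had 1 higher and 1 lower call, and the lower ones (NODAL, SNAI2 and NANOS3) had passed the filter on low counts through IVV, with their direction fixed by it. Both leukocyte calls were higher, the median log2 fold change of that list was 0.70, and 5 of the 14 leukocyte genes found were at the floor in every library. CD8A, a T cell surface protein gene, was higher by 1.49 (edgeR adjusted p = 0.00444), at medians of 2.43 and 0.879 CPM. The summed leukocyte list ran from 14.6 to 29.3 CPM around 24.1 in IVP and from 7.28 to 31.8 CPM around 11.3 in IVV, with PTPRC near 0 as given above. None of the 4 tested endometrial genes and not the 1 tested erythrocyte gene was called. Of 14 tested hypoblast plasma protein genes, the fibrinogen gamma chain gene FGG was higher by 1.92, at medians of 0.497 and 0.120 CPM, and TTR was lower. Too few IVV libraries of FGG reached the filter on low counts, so that it passed through IVP and no p is given. The abundant apolipoprotein gene APOA1 ran from 820 to 1730 CPM in IVP and from 333 to 1725 CPM in IVV and was not called (edgeR adjusted p = 0.517).

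The noncoding RNA gene MEG3 (Entrez 100335527), maternally expressed from an imprinted cluster, had 4.55 to 10.5 CPM around 6.91 in IVP and 0.0508 to 2.00 CPM around 0.383 in IVV. All IVP libraries were above all IVV libraries, with a log2 fold change of 4.03 ± 0.45 (edgeR adjusted p = 4.5e-06, and 0.000198 with XIST as a covariate). MEST, paternally expressed, was higher by 1.84 (edgeR adjusted p = 0.0138) but not without a surrogate variable (edgeR adjusted p = 0.378). These were the 2 calls among the 16 tested genes of the imprinted list, with 0 lower, beside 2.29% of all tested genes called higher. The list does not hold all imprinted genes. MEG8, of the same cluster as MEG3, and NDN, noticed after values were seen, had medians of 2.97 and 1.71 CPM in IVP and 0.185 and 0.510 CPM in IVV and were also called higher, by 3.38 and 1.96. Allele of origin was not measured.

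PIWIL2 (Entrez 537068), which encodes a piRNA-binding protein of germ cells, was among the genes higher with the smallest p. It had 3.24 to 7.91 CPM around 6.49 in IVP and 0.0599 to 1.63 CPM around 0.858 in IVV, without overlap (log2 fold change 2.86, edgeR adjusted p = 2.51e-05). Further germline genes were then looked up after values had been seen and are given as a description. TDRD9, a helicase gene of the piRNA pathway, had 35.5 to 62.1 CPM around 43.0 in IVP and 1.39 to 13.3 CPM around 7.39 in IVV. DDX4, the germ cell helicase VASA, had 1.13 to 3.22 CPM around 2.09 in IVP and 0.180 to 1.07 CPM around 0.463 in IVV. TEX12, a synaptonemal complex gene, had medians of 9.09 and 2.63 CPM. In all 12 were looked up, of which 8 were called higher, beside 2.29% of all tested genes, a count from which nothing is read since the genes were looked up with values known. Without a surrogate variable SYCP1, NOBOX and DPPA2 of the 8 were not called, and with XIST as a covariate NOBOX alone was (edgeR adjusted p = 0.0303, and 0.0503 for PIWIL2). The log2 fold changes with this covariate were 2.45 for PIWIL2, 1.89 for TDRD9, 1.57 for DDX4 and 2.51 for SYCP1. For SYCP2, TEX12, NOBOX and DPPA2 they were 1.98, 1.68, 3.43 and 1.48. Without the covariate they were, in the same order, 2.86, 2.75, 1.86, 1.63, 1.61, 2.04, 2.37 and 1.56. NANOS3, a germ cell RNA regulator, was called lower, TDRD1 had a log2 fold change of -0.40 and was not called, and DAZL and MAEL did not pass the filter on low counts. The germ cell marker list had a median of -0.05 over 7 tested genes, and its 2 calls were DDX4 and NANOS3 again. TRIM47 (Entrez 618638), a ubiquitin ligase gene, and B3GALT5 (Entrez 614873), a glycosyltransferase gene, were also among the smallest p of genes higher, at log2 fold changes of 2.40 and 2.01 (edgeR adjusted p = 5.11e-05 and 7.34e-05).

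All 13 mitochondrially encoded respiratory chain genes were fitted higher in IVP, 9 were called (beside 2.29% of all tested genes), and their median on the log2 scale was 1.02, beside 0.45 without a surrogate variable. The 83 tested nuclear-encoded subunits had 0 calls and a median of -0.08. COX3 (Entrez 3283883), a subunit of complex IV, had 6135 to 19442 CPM around 10281 in IVP and 1538 to 20726 CPM around 4569 in IVV. The IVV range enclosed the IVP range, VE19 being its highest library, and the log2 fold change of 1.01 was called with a surrogate variable (edgeR adjusted p = 0.0403) and not without one (edgeR adjusted p = 0.887). ND5, of complex I, behaved alike, with edgeR adjusted p = 0.00744 with and 0.845 without the surrogate variable. None of the 9 calls was made without it, and with a library left out between 2 (without IVP14) and 12 of the 13 were called. In single libraries the 13 transcripts took 4.15% to 11.5% of counts in IVP and 1.02% to 13.9% in IVV. VE19, with the highest share, was also the library with the highest surrogate variable (0.688).

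The 224 lower calls include 39 genes with at most 3 counts in every IVP library. Such genes passed the filter on low counts through the IVV libraries alone, so their direction was fixed by the filter, and neither their number nor their p is support for it. For such genes only a bound against 3 counts per library can be given, and it covers counting error only. NANOS3 (Entrez 112447338) had at most 1 count in any IVP library and 0.508 to 3.69 CPM around 1.45 in IVV, at least 33.0-fold lower. TTR, the thyroid hormone carrier of yolk sac endoderm, had up to 4.63 CPM in IVV and was at least 37.4-fold lower. MT1A, a metallothionein gene, was at least 216-fold lower by group means, but it was at 0 in VE3 and VE4 as well and reached 39.8 CPM in another IVV library. MIR192, listed as a microRNA gene, had 0.352 to 1.01 CPM in IVV and was at least 13.4-fold lower. KLRC1, a natural killer cell receptor gene, was at least 29.5-fold lower, and HSD11B2 at least 9.395-fold lower. In GJB5, a connexin gene (at least 14.9-fold lower), and in 13 more of the 39 genes, the same count of 10 or more stood in at least 3 libraries of 1 procedure and set. Such repeated counts occurred in 84 tested genes, 16 of the 224 lower and 1 of the 337 higher calls. Without the genes at the floor and those with repeated counts, 335 higher and 183 lower calls were left.

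None of 23 tested trophoblast transcription factor genes was called, whereas of 4 trophoblast keratins KRT7 was lower under some of the models, as given above. CDX2 had 20.4 to 112 CPM in IVP and 39.0 to 104 CPM in IVV, and GATA2 had 83.5 to 482 and 117 to 254 CPM (log2 fold change 0.82, edgeR adjusted p = 0.145). Of the 11 tested secreted trophoblast proteins 0 were called, with 14 of the 32 found at the floor in every library. Of the 11, 8 were fitted below 0, and the summed level of the list ran from 8745 to 51297 CPM around 15613 in IVP and from 14503 to 40798 CPM around 32991 in IVV, so that the ranges overlapped. The interferon tau gene IFNT3 had 622 to 3823 CPM in IVP and 1142 to 3163 CPM in IVV (log2 fold change -0.17 ± 0.37, edgeR adjusted p = 0.976). The pregnancy-associated glycoprotein gene PAG11 had 2949 to 19188 and 4801 to 14647 CPM (log2 fold change -0.20 ± 0.36, edgeR adjusted p = 0.967), and the Kunitz-domain gene TKDP1 had 2679 to 19969 and 6402 to 18182 CPM (log2 fold change -0.54 ± 0.41, edgeR adjusted p = 0.707). Each of these IVP ranges enclosed the IVV range. Near-identical copies within these families can share reads. IGF system, EGF family and antioxidant genes had 0 calls as well. RPL10, a ribosomal protein gene, was among the most abundant genes called lower, at medians of 1360 and 2284 CPM (log2 fold change -0.92, edgeR adjusted p = 0.0276, and 0.0826 without a surrogate variable).

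Whether the effect of the procedure differed between EEM and ED was tested in the 13 embryos with both tissues, 5 IVP and 8 IVV, with embryo as a block. The interaction was called for 172 of 16784 genes (1.02%), 154 with the EEM effect above the ED effect and 18 below. Of these, 75 and 10 were too low to be tested in the EEM alone, and 51 and 13 were at the floor in the EEM of at least 1 procedure, so that the split rests in part on genes near 0. Of the 172 genes 39 were also called in the EEM. With an embryo left out, that is both of its libraries, the interaction had between 101 calls (without VE29) and 211. It had 104 without VE28 and 109 without IVP10 or IVPF14. FBN2 was higher in the EEM of IVP embryos and lower in their ED (log2 fold changes 2.54 and -1.80), a difference of 4.35 ± 0.45 (SE). NRP1 had the same pattern, with 2.42 in the EEM and -1.27 in the ED (difference 3.62). MEG3 had 4.03 in the EEM and -0.50 in the ED, where it was not called (difference 4.23). WNT4 differed by 2.43, VCAN by 1.31, ITGB7 by 1.98 and MMP14 by 2.00, each with the EEM effect above the ED effect. LGR5 had a difference of -2.89 and an ED log2 fold change of -0.00, a description only, since its EEM direction was fixed by the filter. SH3BGRL, a thioredoxin-like gene, differed by 3.74, with 2.72 in the EEM and -0.92 in the ED. GYPC, an erythrocyte membrane glycophorin gene not tested in the EEM alone, had 0.0192 to 3.41 CPM around 1.57 in EEM of IVP embryos and at most 0.0399 CPM in IVV. For most other genes of the EEM the difference between tissues was not past the threshold, which does not show that the tissues responded alike.

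**Figure D5:**
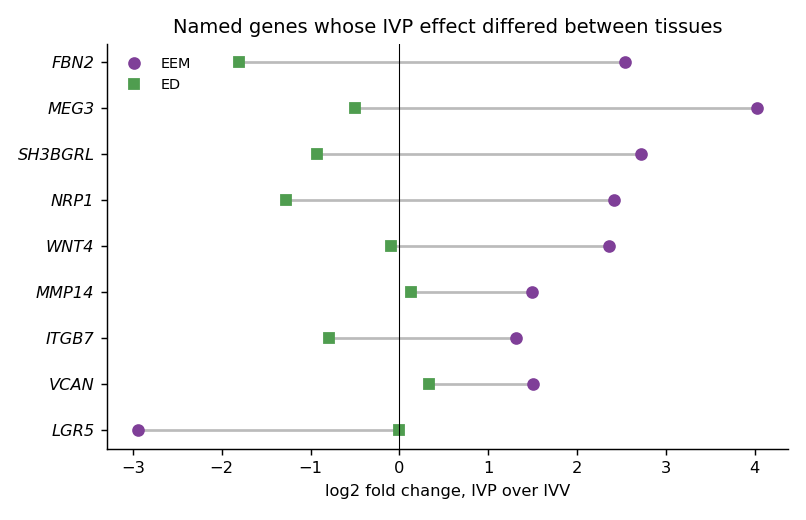
Log2 fold change of IVP over IVV in the EEM (purple circles) and in the ED (green squares) for 9 named genes called for the interaction and tested in both tissues, joined by a line for each gene. In FBN2 the circle is at 2.54 and the square at -1.80, while LGR5, with at most 5 counts in an IVP library of the EEM, has its EEM value below the ED value.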

How the data were processed

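The authors filtered the paired reads (SOAPnuke), trimmed them, aligned them to the ARS-UCD1.3 assembly and made counts per gene. The submitters' processing notes list FastQC 0.11.9, Trimmomatic, STAR 2.7.0b and featureCounts of Subread 2.0.3. The deposited values are whole-number counts of 35092 Entrez gene IDs in 30 libraries, without normalization. The regularities between library sets given above mean that they may have been adjusted, and edgeR's assumption of independent counts was not met in full. Symbols came from the RefSeq table of another assembly, ARS-UCD2.0, by gene ID (31630 named), and no positions were used. No sequences were used.

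From these counts, TMM factors, CPM, filterByExpr (minimum 10 counts), 1 surrogate variable (svaseq, sva 3.50.0) and the quasi-likelihood test of edgeR, adjusted over all tested genes by Benjamini-Hochberg, were computed (edgeR 4.0.16, limma 3.58.1, R 4.3.3). Genes with an adjusted p under 0.05 were called. The interaction used embryo as a block. Library summaries had two-sided exact permutation tests. Alternatives were DESeq2 1.42.0, limma voom and others given in the closing section. The EEM test and the interaction test were tried on simulated counts.

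Genes were named by rule: XIST, the 6 smallest p and the 6 most abundant calls per direction, the 5 most abundant floor genes (at most 3 counts in every library of a group) per direction, up to 3 called members per list and direction and each list's most abundant member, and the 3 smallest interaction p. Genes known only by a LOC number were skipped, and part of the named genes is printed (1 is not reported here). Genes outside the rule (the germline and X-linked genes, marker levels and further list members) were chosen after values were seen. Members and lists were chosen with earlier results of these data known.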

Additional observations from a re-analysis of the deposited data

Results flagged for a closer look

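Of 181 groups of libraries examined for a single library far from the others, 10 had one. The rule is set to flag about 1 in 20 such groups by chance, a rate that was not tested here. VE19 stood low among the IVV libraries in 3 genes that were higher in IVP: SMARCA2 at 8.18 CPM (the others 20.2 to 36.6), PLA2G4A at 0.02 CPM (0.536 to 3.02) and AQP11 at 1.38 CPM (6.34 to 17.6). VE4 stood low for TTR at 0 CPM (0.733 to 4.63) and for HHEX at 2.23 CPM (6.18 to 11.7). Single low IVV libraries were also VE26 for MIR192 at 0.352 CPM (0.644 to 1.01), VE3 for KLRC1 at 0 CPM (0.944 to 2.85), VE24 for NODAL at 0.134 CPM (0.322 to 0.662) and VE5 for HPGD at 0.125 CPM (0.469 to 1.34). In IVP, LGR5 was at 0 CPM in IVPF14 and at 0.05 to 0.0794 CPM in the others.

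The effect of the procedure differed between EEM and ED in 10 of the genes followed one by one, by the interaction test with embryo as a block. As a log2 difference of EEM minus ED, it was 4.35 for FBN2, 4.23 for MEG3, 3.74 for SH3BGRL, 3.62 for NRP1, 2.43 for WNT4, 2 for MMP14, 1.98 for ITGB7 and 1.31 for VCAN. It was -2.89 for LGR5 and -5.53 for SH2D6. Both had passed the filter on low counts in the EEM through IVV (at most 5 and 1 counts in an IVP library, and repeated counts in SH2D6), so their EEM direction was fixed by it and nothing is read from these 2 differences.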

How the results depend on the processing

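Apart from XIST under its own covariate, no called gene followed one by one changed sign under the alternatives run, and of 91 such genes 62 kept their call whichever library was left out. Calls were lost in 27 of the 91 with 0 surrogate variables, 59 of 90 with XIST, 33 of 91 with the set term and 0 surrogate variables, 59 of 91 within the set of VE24 and 88 of 88 within the set of VE19. The 561 calls (337 higher, 224 lower) became 1211 (764 and 447) with no filter on low counts, 303 (207 and 96) with a mean of at least 1 CPM and 144 (54 and 90) with XIST as a covariate, and 184 genes were higher with 0 surrogate variables. In alternatives chosen after seeing the data they became 115 (47 and 68) with XIST and 0 surrogate variables, 312 (149 higher) with the library set as a term and 0 surrogate variables, 228 (86 and 142) within the set of VE24 and 0 (0 and 0) within the set of VE19. Immediate early genes called lower numbered 12 with XIST, 3 with XIST and 0 surrogate variables, 7 within the set of VE24 and 0 in the other set. Histones called lower numbered 7 at a mean of at least 1 CPM, 9 with XIST and 0 surrogate variables and 0 within the set of VE19. Mitochondrial genes called higher numbered 3 with XIST, 2 with XIST and 0 surrogate variables, and 0 with 0 surrogate variables, with the set term and 0 surrogate variables, and within either set. With each library left out, calls ran from 426 to 729, immediate early genes from 12 (without VE28) to 21, histones from 16 to 21, and mitochondrial genes from 2 (without IVP14) to 12. With both libraries of an embryo left out, interaction calls ran from 101 to 211. Without VE29, VE28, IVP10 or IVPF14 the interaction had 101, 104, 109 and 109 calls. It had 356 calls with no filter and 329 with limma voom. The cause of these changes was not tested, beyond the fewer libraries within a set. No paired analysis was possible because IVP and IVV embryos share no numbers in the labels. The interaction had embryo as a block, and without this block, in all 30 libraries, it had 301 calls. DESeq2, the RLE normalization and halved counts moved none of the 3 counts of calls in the EEM by over 1.5 times. With halved counts 308 genes were higher and 165 lower.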
